A study of Homo sapiens with 27 samples.

Results

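The effect of losing USB1 on mature miRNAs was compared between 2 human cell lines, H1 human embryonic stem cells (hESCs) and K562, a leukemia line derived from chronic myelogenous leukemia (CML). The question was which miRNA changes both lines share and which belong to 1 of them. Of the 27 small RNA libraries in the series, 12 were compared, in 4 groups of 3. In hESCs, WT cells were set against USB1 mutants, in which, per the study's methods, CRISPR/Cas9 introduced a frequent patient mutation, a single-base deletion in USB1. In K562, control cells, whose genotype is labelled WT, were set against USB1 KO cells, which the methods describe as nucleofected with a guide, selected with puromycin and expanded from single cells. Neither the labels nor the methods state how many clones were sequenced, or that the K562 control passed through the same selection and cloning. The 2 perturbations therefore differ in the allele, in the line and in how the cells were derived, and these cannot be told apart. None of the 12 libraries carried an inducible transgene, an shRNA or a drug treatment according to the labels. Small RNA sequencing does not measure USB1 mRNA, so the targeted gene could not be checked in these libraries. The miRNAs compared were those listed in all 4 deposited tables, 1068 of 2138 listed in any of them, and 892 of these passed the filter on low counts and were tested.

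USB1 is an RNA exonuclease that trims the 3′ ends of U6 snRNA, and it can remove adenosines that PAPD5 adds to the 3′ ends of miRNAs. A mature miRNA is cut from 1 arm (5p or 3p) of a hairpin and loaded into Argonaute, and the seed, bases 2 to 8, sets most of its targeting. Many miRNAs are transcribed in clusters from 1 primary transcript, so neighbours and both arms of a hairpin may move together. The large cluster at 14q32 is imprinted and expressed from the maternal chromosome, together with the noncoding RNAs MEG3, MEG8 and MEG9.

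The mature sequences of the miRNAs that carry the comparison are printed 5′ to 3′ from RefSeq (GRCh38.p14), with the seed in capitals. The first pair, miR-381-3p and miR-493-3p, moved in opposite directions in the 2 lines, and both lie in the 14q32 cluster, at chr14:101045968-101045989 in an intron of MEG9 and chr14:100869116-100869137 in an intron of MIR493HG. Both arms of miR-9, which share no seed, and miR-584-5p rose in K562. miR-9 has 3 hairpins, MIR9-1, MIR9-2 and MIR9-3, whose mature products are identical, and MIR584 lies in an intron of SH3TC2 (chr5:149062373-149062394).
miR-381-3p: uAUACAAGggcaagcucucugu
miR-493-3p: uGAAGGUCuacugugugccagg
miR-9-5p: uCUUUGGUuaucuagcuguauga
miR-9-3p: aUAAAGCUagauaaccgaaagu
miR-584-5p: uUAUGGUUugccugggacugag

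A further group is shown because the effects of close relatives had opposite signs in K562, a contrast that was not tested. miR-135a-5p and miR-135b-5p have the same seed, as have miR-181d-5p and miR-181b-5p, and miR-30a-5p and miR-30a-3p are the 2 arms of 1 hairpin in an intron of LINC00472 (chr6:71403595-71403616 and chr6:71403554-71403575).
miR-135a-5p: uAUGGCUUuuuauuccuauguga
miR-135b-5p: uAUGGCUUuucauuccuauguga
miR-181d-5p: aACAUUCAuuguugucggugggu
miR-181b-5p: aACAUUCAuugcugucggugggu
miR-30a-5p: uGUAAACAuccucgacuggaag
miR-30a-3p: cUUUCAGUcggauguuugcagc

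The last sequences belong to miRNAs whose libraries were lower after USB1 loss without overlap in both lines. None of them passed the main test in each line separately, and the fall of miR-34b-3p differed between lines. MIR450B lies on the X chromosome (chrX:134540231-134540252) beside MIR424, MIR503 and MIR542, MIR146A in an exon of MIR3142HG (chr5:160485372-160485393), MIRLET7C in an exon of MIR99AHG (chr21:16539838-16539859) and MIR34B in an intron of MIR34BHG (chr11:111512987-111513008).
miR-450b-5p: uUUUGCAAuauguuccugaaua
miR-146a-5p: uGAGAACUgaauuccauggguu
let-7c-5p: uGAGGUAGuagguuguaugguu
miR-34b-3p: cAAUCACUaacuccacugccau

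Several libraries stood apart from the rest of their group. Total counts per library ranged from 14614433 to 35734485 in hESCs and from 1530929 to 10556927 in K562, where KO library 3 was the shallowest. Of the miR-302 cluster, which marks pluripotent cells, 10 members were listed in K562 control and 2 in KO. The cluster gave between 1 and 7 counts in the KO libraries and 2 in control library 3. It gave 14569 counts in K562 control library 1 and 9760 in control library 2. These counts amount to 0.331% and 0.350% of the level in WT hESCs. If the other miRNAs of WT hESCs were present in those libraries at the same share, this would make up at least 25% of the K562 control level for 33 tested miRNAs, of which 3 were called in K562 (miR-302b-3p, miR-335-3p and miR-455-5p) and 1, miR-335-3p, in the difference between lines. In WT hESCs, library 1 differed from libraries 2 and 3 by a chi-square per degree of freedom of 488 and 537, against 22.5 between the other pair, and mutant library 1 stood further from libraries 2 and 3 (1998 and 1726). By this measure, which grows with depth and so does not rank pairs across groups, KO libraries 1 and 2 lay at 13.1. Spearman's rho was 0.959 for that pair and 0.972 for mutant libraries 2 and 3. It was lowest between KO library 3 and KO libraries 1 and 2 (0.917 and 0.924). The 8 hESC markers summed to between 178501 and 397742 CPM in hESCs, 8.71 and 829 CPM in K562 control and 0.653 and 4.75 CPM in KO, where 4 of the 8 were listed. The 8 blood markers summed to between 8382 and 11271 CPM in K562 and between 264 and 447 CPM in hESCs (CPM of the library total). Against this sum, miR-155-5p and miR-150-5p were higher in WT hESCs (means of 191 and 4.90 CPM) than in K562 control libraries 1 and 2 (0.570 and 1.29 CPM). Of 8 markers of fibroblasts, a feeder cell type of hESC culture, the sum was 564 to 935 CPM in hESCs, 2841 to 3025 CPM in K562 control and 3174 to 8786 CPM in KO, the highest being KO library 3. The part of the miR-302 cluster reads and of the fibroblast marker sum in the results was not tested beyond leaving out those libraries. Whether separate cultures lay behind the libraries is not stated for each, so p-values measure the spread between libraries, part of which may be technical. In bulk libraries fewer cells of a type and less of a miRNA per cell cannot be told apart.

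Levels below are CPM after TMM scaling, in the order of library 1, 2 and 3. Each effect is a log2 fold change, mutant over WT in hESCs or KO over control in K562, given ± SE. Called means an adjusted p (Benjamini-Hochberg, over 892 miRNAs) under 0.05 in edgeR's quasi-likelihood test. In hESCs, 16 miRNAs were called (1.79%), 6 higher (0.673%) and 10 lower (1.12%). In K562, 37 were called (4.15%), 8 higher (0.897%) and 29 lower (3.25%). The difference of the 2 effects, hESC minus K562, was called for 28 (3.14%), 21 positive (2.35%) and 7 negative (0.785%), and in 27 of these the 2 effects had opposite signs. No miRNA was called in both lines in the same direction (0%), while 22 (2.47%) had an unadjusted p under 0.05 in both with the same sign. DESeq2 called 4 in both lines in the same direction and limma voom 8. A pair, miR-381-3p and miR-493-3p (0.224%), was called in both lines in opposite directions. Across the 892 miRNAs the 2 effects had the same sign in 487 (54.6%), with a Pearson's r of 0.07 and a Spearman's rho of 0.15. These are descriptions across miRNAs, which are not independent replicates. An unadjusted p under 0.05 was reached by 16.7% of miRNAs in hESCs, 14.9% in K562, 12.4% in the difference and 19.6% in the mean of both effects.

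**Figure D1:**
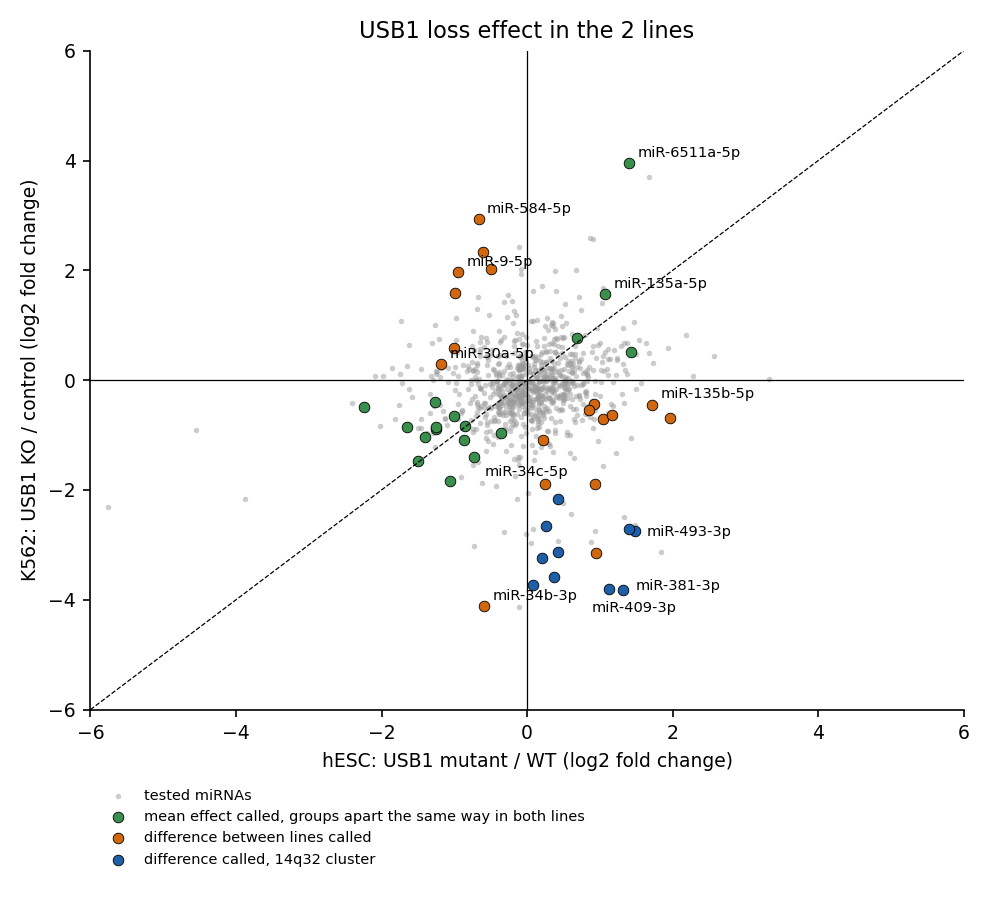
Each point is 1 tested miRNA, with its log2 fold change after USB1 loss in hESCs on the x axis and in K562 on the y axis; the dashed line marks equal effects, and miR-302a-3p and miR-302b-3p lie outside the axes. The 28 miRNAs whose effects differed between lines (orange and blue) lie off the dashed line, 27 of them where the signs are opposite, and the 10 of the 14q32 cluster (blue) lie at the lower right.

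A miRNA called in 1 line was not thereby shown to differ between lines. Of the 16 hESC calls, 5 were also called in the difference, and of the other 11, 9 had the same sign in K562. Of the 37 K562 calls, 19 were also called in the difference, and 13 of the other 18 had the same sign in hESCs. The median SE was 0.38 in hESCs, 0.41 in K562 and 0.58 for the difference, so that smaller differences between lines were not detectable with 3 libraries a group. The median K562 effect over all miRNAs was -0.14, and that of the difference 0.19. With TMM factors computed within each line the median K562 effect was 0.03, so that small K562 effects depend on the scaling.

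miR-381-3p was the miRNA with the largest called difference. Its levels were 5.24, 8.66 and 6.58 CPM in the WT hESC libraries and 18.3, 20.4 and 12.1 CPM in the mutants. In K562 they were 208, 228 and 169.7 CPM in control and 11.1, 16.2 and 15.5 CPM in KO. All 3 mutant hESC libraries lay above WT and all 3 KO libraries below control, and after USB1 loss the 2 lines, far apart before, lay at similar levels. The effect was 1.32 ± 0.29 in hESCs (adjusted p = 0.0366) and -3.83 ± 0.30 in K562 (adjusted p = 2.38e-06), a difference of 5.15 ± 0.41 (95% interval 4.26 to 6.03, adjusted p = 2.71e-06). miR-493-3p, from the 5′ end of the same cluster, stood at 0.643, 0.675 and 0.646 CPM in WT and 2.04, 1.39 and 2.24 CPM in mutant hESCs, which is near the detection limit. In K562 it stood at 64.3, 49.4 and 56.5 CPM in control and 8.79, 9.53 and 6.44 CPM in KO. Neither pair of groups overlapped, and the effects of 1.48 ± 0.35 and -2.75 ± 0.28 differed by 4.23 ± 0.44 (adjusted p = 4.22e-05). The differences of both miRNAs were called under all 25 alternatives that gave a value, with adjusted p no higher than 0.00125. The rise in hESCs was less firm. With 1 library left out, miR-381-3p was still called in both lines without WT library 2, mutant library 3, K562 control library 3 or KO library 3, and miR-493-3p without KO library 3. With any other library left out, neither pair of calls held.

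Most tested members of the 14q32 cluster fell in K562, and none was called lower in hESCs. Of 70 members listed in any table, 25 were listed in all 4 and 20 were tested, spread over 196 kb. In K562, 15 of the 20 were called lower, against 3.25% of all tested miRNAs, and 18 had no overlap between KO and control, against 19.2% of all tested miRNAs with KO below control. In hESCs, 2 were called higher (miR-381-3p and miR-493-3p), against 0.673% of all, and in the difference 10 were called positive, against 2.35%. The median effect of the 20 was 0.43 in hESCs and -2.76 in K562, beside medians of 0.03 and -0.14 over all tested miRNAs, and the median difference was 3.74. All 20 had a negative effect in K562 and 16 a positive one in hESCs. Mean levels in WT hESCs ranged from 0.06 CPM (miR-411-3p, hESC SE 1.07) to 6.83 CPM (miR-381-3p). Several members were near the detection limit there, such as miR-382-5p (0.21 CPM), miR-493-5p (0.23 CPM) and miR-127-5p (0.25 CPM). The hESC signs, and the medians of the hESC effect and of the difference, therefore rest in part on few reads. A member could pass the filter on low counts through K562 control, where the cluster was highest, and the members that did not pass were not tested. The cluster list was chosen with earlier results of these data known.

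The K562 effects of the 15 called members lay between -4.13 and -2.16 along the cluster. miR-127-3p, near the 5′ end, went from 99.1, 90.0 and 91.6 CPM in K562 control to 12.3, 15.1 and 17.4 CPM in KO, an effect of -2.66 ± 0.39 (adjusted p = 0.000596). In hESCs its groups overlapped, at 9.28, 6.41 and 4.26 CPM in WT and 3.62, 11.8 and 8.44 CPM in mutants. miR-379-5p, in an intron of MEG8, went from 37.9, 27.4 and 25.3 to 2.90, 2.19 and 5.30 CPM in K562 (-3.24 ± 0.38), with 0.21 in hESCs and a difference of 3.45 ± 0.51 (adjusted p = 0.00107). miR-409-3p, at the 3′ end, went from 12.4, 14.1 and 17.9 to 0.561, 0.700 and 3.03 CPM in K562, where KO library 3 was the highest of the KO libraries. In hESCs it went from 3.03, 3.04 and 3.36 to 7.25, 6.94 and 6.33 CPM without overlap, although the hESC effect of 1.12 ± 0.40 did not pass the test (adjusted p = 0.155), and the difference of 4.93 ± 0.62 did (adjusted p = 0.000218). The other called differences were miR-654-3p (3.95), miR-495-3p (4.11), miR-134-5p (3.81), miR-494-3p (3.55) and miR-370-3p (2.59). The call was lost with the replicate number as a block for miR-127-3p (2.37 to 3.63 over all alternatives) and with library totals for miR-370-3p (2.08 to 3.16). The 2 members with the smallest K562 effects were miR-665 (-0.44 ± 0.65) and miR-127-5p (-0.96 ± 0.82), both under 3 CPM in every library. Leaving out K562 control libraries 1 and 2, the difference of miR-381-3p was 4.89 and that of miR-379-5p 3.19, both still called.

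**Figure D2:**
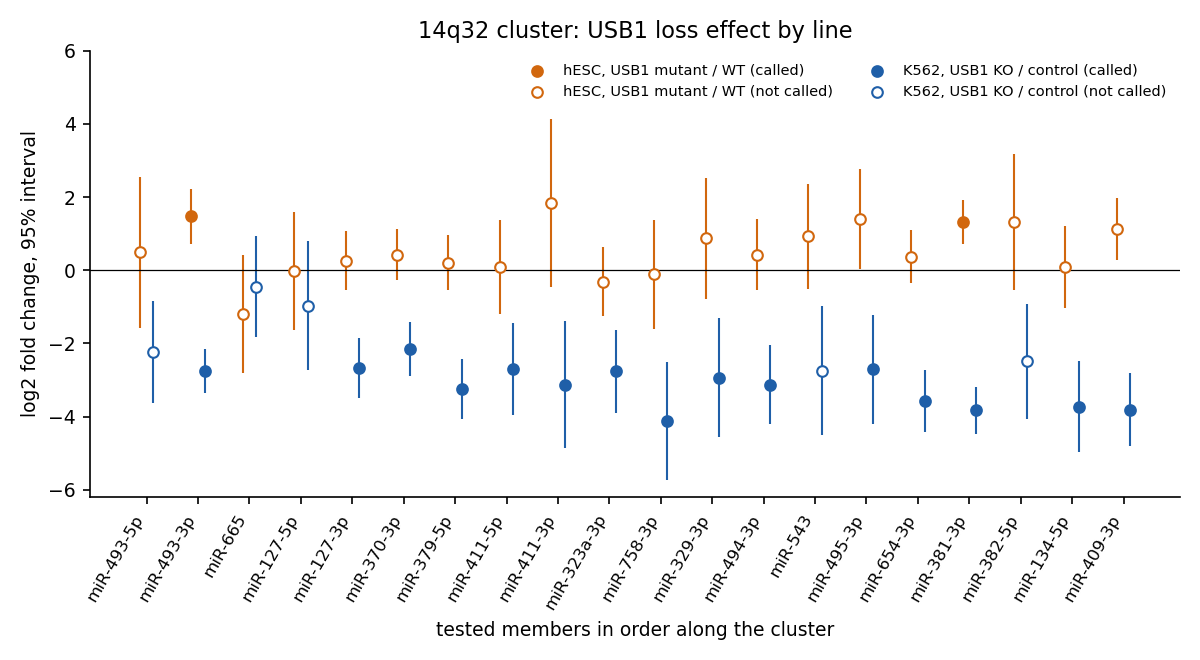
Log2 fold change after USB1 loss with its 95% interval for the 20 tested members of the 14q32 cluster, in genomic order, in hESCs (orange) and K562 (blue); filled points were called at an adjusted p under 0.05. All 20 K562 points lie below 0, 15 of them filled, while 16 hESC points lie above 0, 2 of them filled.

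In K562, 5 miRNAs rose while their hESC effects were negative, and the difference was called for each. miR-9-5p, a miRNA of neural progenitors that stem cells also express, was at 331, 241 and 220.0 CPM in K562 control and 1346, 1146 and 598 CPM in KO. In hESCs it was at 1413, 2992 and 3025 CPM in WT and 1106, 1269.6 and 1474 CPM in mutants, where WT library 1 fell among the mutants. The K562 effect was 1.96 ± 0.34 (adjusted p = 0.00246), the hESC effect -0.95 ± 0.33 (adjusted p = 0.147) and the difference -2.91 ± 0.47 (adjusted p = 0.00219). The other arm, miR-9-3p, gave 2.33 in K562, -0.60 in hESCs and a difference of -2.93 ± 0.47, so that both arms moved together in both lines. Leaving out hESC libraries 1 and KO library 3 was chosen after the data were seen, and it removes the WT library that fell among the mutants. In that fit both arms were called lower in hESCs, at -1.12 for miR-9-5p and -1.01 for miR-9-3p, which is therefore no separate support for a fall. miR-584-5p showed the clearest separation in K562, at 9.08, 10.4 and 10.2 CPM in control and 71.8, 79.1 and 76.9 CPM in KO, while hESC WT (11.8, 7.42 and 10.8 CPM) overlapped with mutants (4.30, 7.66 and 6.86 CPM). Its difference was -3.60 ± 0.40 (adjusted p = 5.62e-05), called like those of both miR-9 arms under all 25 alternatives. miR-1257, whose hairpin lies in an exon of TAF4, rose from 25.6, 20.2 and 21.2 to 119, 83.8 and 69.3 CPM in K562, with a difference of -2.52 ± 0.46, which was not called without K562 control libraries 1 and 2 (-2.59, adjusted p = 0.0740). miR-3681-5p rose in K562 (1.59 ± 0.34, adjusted p = 0.0144), with no overlap between control and KO, but was under 2 CPM in each hESC library, and its difference of -2.57 ± 0.58 lost its call in 11 of 25 alternatives, among them without hESC WT library 1 or 3, mutant library 2, K562 control library 1 or 2, or KO library 1 or 2.

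Outside 14q32, K562 was called lower for miR-126-3p, miR-34b-3p, miR-335-3p and miR-4671-5p, whose differences were positive. miR-126-3p, a miRNA of endothelial and blood progenitor cells, was the most abundant of the 28, at 24981, 23456 and 25528 CPM in K562 control and 11802, 13336 and 9649.5 CPM in KO. In hESCs it was at 720.2, 942 and 919.6 CPM in WT and 1082, 974 and 946 CPM in mutants, lower without overlap in K562 and slightly higher without overlap in hESCs. Its effects were -1.09 ± 0.20 (adjusted p = 0.00427) and 0.22 ± 0.20 and its difference 1.31 ± 0.28 (adjusted p = 0.0206). miR-34b-3p, of the p53-responsive miR-34 family, was the 1 called difference with the same sign in both lines. It had 17, 11 and 21 reads in K562 control and 1, 1 and 0 in KO, a KO to control ratio of 0.0502 with a 95% counting interval of 0.00591 to 0.191. In hESCs it went from 33.6, 26.7 and 31.4 to 26.6, 15.7 and 18.6 CPM without overlap, an effect of -0.59 ± 0.27 that did not pass the test (adjusted p = 0.286). miR-335-3p, from an intron of the imprinted gene MEST, stood at 17.8, 13.6 and 5.08 CPM in K562 control, highest in the 2 libraries with miR-302 cluster reads, and at 2.15, 3.24 and 5.30 CPM in KO. Its difference of 2.14 ± 0.54 fell to 0.88 without those libraries and was called in 5 of 24 alternatives; every library except K562 control library 3 and KO library 3 ended the call when left out. miR-4671-5p was at most 3 CPM in every library, with a difference of 4.09 (adjusted p = 0.0382).

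In hESCs, 3 miRNAs were called alone and with a called difference. miR-135b-5p was at 259, 327 and 308 CPM in WT and 1745, 631 and 575 CPM in mutants, mutant library 1 being far above the other pair. In K562 it was at 101, 89.7 and 118 CPM in control and 80.9, 87.3 and 57.6 CPM in KO, lower without overlap. The effects were 1.72 ± 0.36 (adjusted p = 0.033) and -0.44 ± 0.35 (adjusted p = 0.61), and the difference was 2.17 ± 0.50 (adjusted p = 0.0289). It shrank to 1.32 without mutant library 1 and to 1.14 without hESC libraries 1 and KO library 3, and its call was lost in 11 of 25 alternatives, including without any 1 of the 3 WT or 3 KO libraries or K562 control library 1. miR-30a-5p fell in hESCs from 1171, 966 and 1051 to 451, 431 and 525 CPM, with no overlap. In K562 its groups overlapped (49.6, 32.6 and 47.6 CPM in control and 43.8, 47.9 and 67.8 CPM in KO). Its effects of -1.18 ± 0.24 and 0.29 ± 0.24 differed by -1.47 ± 0.34 (adjusted p = 0.0287), a call lost in 7 of 25 alternatives, among them without hESC WT library 1, K562 control library 1 or 2, or KO library 2. miR-9903, at 3.77, 4.05 and 3.74 CPM in WT and 10.9, 7.76 and 7.39 CPM in mutant hESCs, was the last, with a difference of 1.80 ± 0.39 (adjusted p = 0.0206). A further 6 differences were called where neither line was: miR-105-5p (1.36), miR-550a-5p (1.40), miR-625-3p (1.76), miR-4677-5p (2.65), miR-101-5p (2.82) and miR-181b-5p (-1.59). For miR-550a-5p, for example, hESC levels were 14.9, 16.3 and 14.8 CPM in WT and 24.8, 33.1 and 25.3 CPM in mutants, and K562 levels 112, 103 and 99.8 CPM in control and 79.8, 79.8 and 56.5 CPM in KO, higher in 1 line and lower in the other without overlap.

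**Figure D3:**
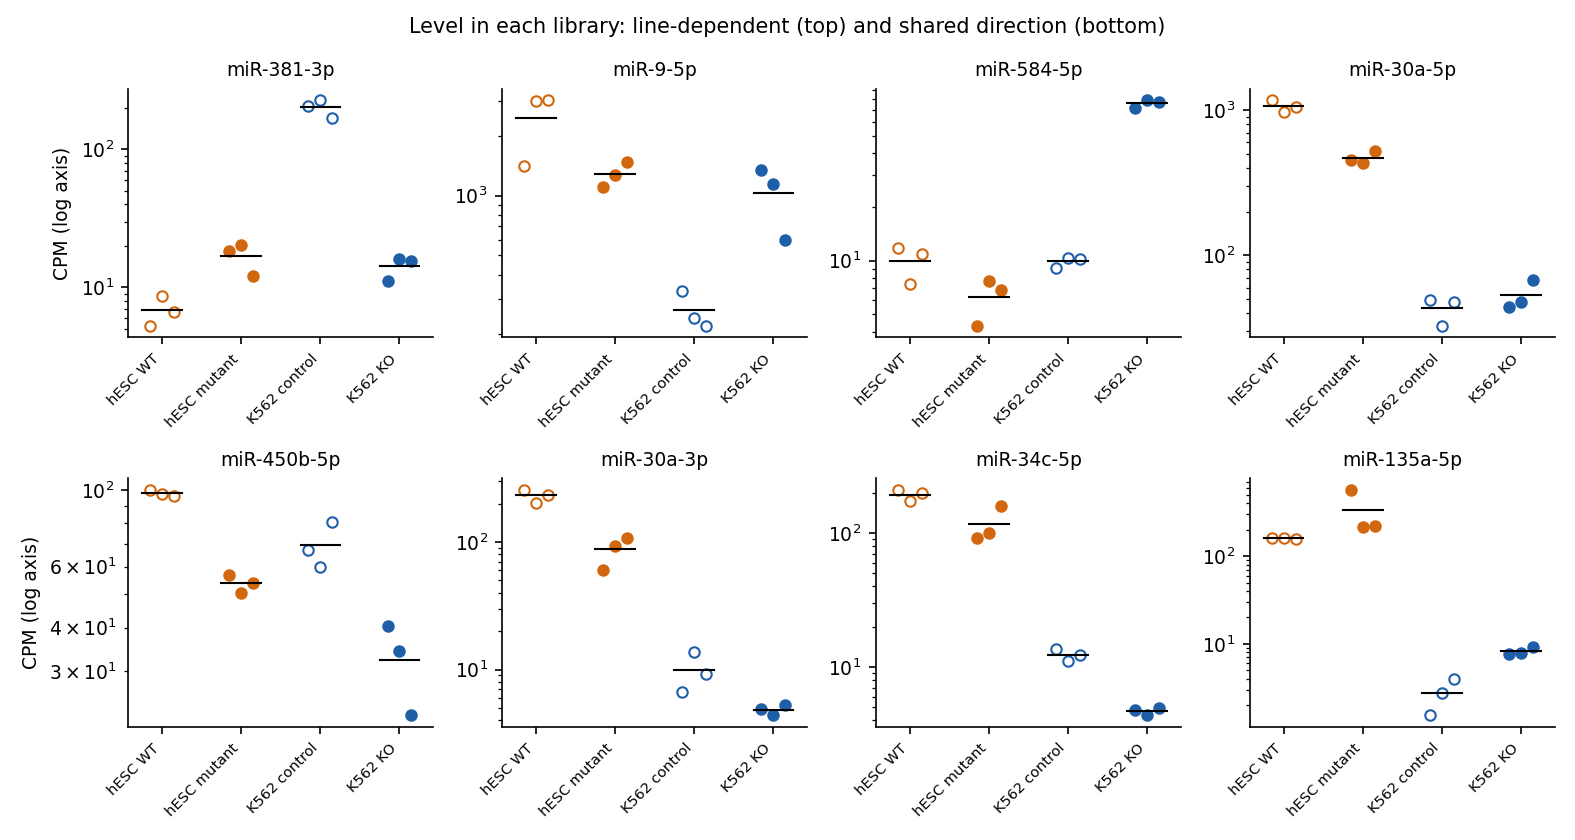
CPM (log axis) of 8 miRNAs in each of the 12 libraries, open circles for hESC WT and K562 control and filled circles for USB1 mutant and KO, with a bar at each group's mean. In the top row the 2 lines respond differently (miR-381-3p, miR-9-5p, miR-584-5p, miR-30a-5p), and in the bottom row the groups separate in the same direction in both lines (miR-450b-5p, miR-30a-3p, miR-34c-5p, miR-135a-5p).

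Changes in the same direction were sought with the mean of the 2 effects, a test that gains from both lines. The mean was called for 44 miRNAs (4.93%), 10 higher (1.12%) and 34 lower (3.81%), but 11 of these were also called in the difference and 34 had the same sign in both lines. Requiring in addition that the libraries of both lines did not overlap, in the same direction, left 18 (2.02%), 14 lower and 4 higher. Without the test of the mean, 44 of 892 (4.93%) showed such non-overlap in the same direction, 33 lower (3.7%) and 11 higher (1.23%), and 25 (2.8%) in opposite directions, 22 of them higher in hESCs and lower in K562 (2.47%) and 3 the reverse (0.336%). Within 1 line, the groups did not overlap for 24.2% of miRNAs in hESCs (12.8% higher, 11.4% lower) and 26.3% in K562 (7.17% higher, 19.2% lower). The 18 are called shared below. None of the 18 was called in both lines separately, and a mean can be carried by 1 line, as for miR-34b-3p (hESC -0.59, K562 -4.12) and miR-152-3p (hESC -0.36, adjusted p = 0.415; K562 -0.96, adjusted p = 0.0152).

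miR-450b-5p was, with miR-30a-3p and miR-34b-3p, one of the shared miRNAs whose mean effect was called in every alternative. It went from 100.2, 97.1 and 95.8 to 56.6, 50.5 and 54 CPM in hESCs and from 66.9, 59.9 and 80.5 to 40.5, 34.2 and 22.4 CPM in K562. Its effects were -0.86 ± 0.24 (adjusted p = 0.0835) and -1.08 ± 0.25 (adjusted p = 0.0198), and its mean effect was -0.97 ± 0.17 (adjusted p = 0.00511). The difference of 0.22 had an interval of -0.51 to 0.95, which leaves room for unequal effects in either direction. miR-450b-5p was called in both lines in 6 alternatives, DESeq2 and limma voom among them. Without hESC libraries 1 and KO library 3, 6 miRNAs were called lower in both lines: miR-450b-5p, let-7a-5p, let-7c-5p, miR-371b-3p, miR-372-3p and miR-486-3p. This fit was chosen after the data were seen, and it keeps K562 control libraries 1 and 2. The stem cell share expected there is 150.1% of the control level for miR-371b-3p and 63.9% for miR-372-3p. miR-30a-3p was called in hESCs, where it fell from 259, 202 and 236 to 60.8, 93.5 and 108 CPM, and in K562 went from 6.65, 13.8 and 9.26 to 4.86, 4.37 and 5.30 CPM (adjusted p = 0.0865). Its mean effect of -1.22 ± 0.21 was called in all 25 alternatives. miR-34c-5p, transcribed with miR-34b, fell in K562 from 13.7, 11 and 12.4 to 4.77, 4.37 and 4.93 CPM and stood in hESCs at 212, 173 and 198 CPM in WT and 92.3, 101 and 159 CPM in mutants (mean effect -1.07 ± 0.18, adjusted p = 0.00478).

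miR-146a-5p, which restrains signalling through TRAF6 and IRAK1, fell in hESCs (-1.64 ± 0.36, adjusted p = 0.0366), where WT library 1 (594, 204 and 220.4 CPM in WT, 111, 110.2 and 104 CPM in mutants) was far above the other pair. In K562 it was at 334, 567 and 383 CPM in control and 248, 257 and 203 CPM in KO (-0.86 ± 0.35, adjusted p = 0.267). Without hESC libraries 1 and KO library 3 its mean effect went from -1.25 to -0.82. miR-486-3p, from the erythroid miR-486 hairpin, was at 95.7, 96.3 and 108 CPM in WT and 39.9, 51.8 and 57.8 CPM in mutant hESCs, and at 1083, 1042 and 848 CPM in K562 control and 646, 634 and 602 CPM in KO, with a mean effect of -0.83 ± 0.15. The other arm, miR-486-5p, was also lower without overlap in both lines, but its mean effect of -0.55 ± 0.16 did not pass the test (adjusted p = 0.0646). let-7c-5p, of a family that restrains growth genes and rises with differentiation, went from 58.4, 101 and 107 to 19.8, 45.2 and 47.4 CPM in hESCs and from 68, 96 and 63.3 to 34.7, 45 and 42.4 CPM in K562 (mean effect -1.07 ± 0.24, adjusted p = 0.0186). The call of let-7c-5p was lost without hESC WT library 2 or 3 or KO library 1 (adjusted p at most 0.155 over all alternatives). The other shared falls were miR-181d-5p (-0.85), miR-181c-3p (-1.45), miR-542-3p (-0.83), miR-152-3p (-0.66), miR-200a-5p (-1.06), miR-1298-3p (-1.48) and miR-642b-5p (-1.37), all as mean effects. Of these, miR-1298-3p had between 0 and 5 counts in each K562 library and miR-642b-5p between 1 and 8 in each hESC library, so that their values in those lines rest on few reads, and miR-200a-5p is among the 33 miRNAs that stem cell reads could affect in K562 control. The call of the mean was lost in 15 of 24 alternatives for miR-1298-3p, including without any single K562 library, and in 10 of 24 for miR-642b-5p. K562 gave smaller effects, without a call, for miR-542-3p (-0.40 ± 0.28, hESC -1.27), miR-642b-5p (-0.49 ± 0.29, hESC -2.25) and miR-200a-5p (-0.86 ± 0.46, hESC -1.25). miR-181c-3p (-1.83) and miR-152-3p (-0.96) were called in K562 and not in hESCs.

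The shared rises were fewer. miR-135a-5p went from 162, 163 and 156 to 576, 217 and 219 CPM in hESCs and from 1.53, 2.73 and 3.92 to 7.58, 7.87 and 9.09 CPM in K562, a mean effect of 1.32 ± 0.27 (adjusted p = 0.0138). miR-3182, from an intron of CDH13, went from 18.7, 27.2 and 26.5 to 44.6, 33.6 and 38.7 CPM in hESCs and from 353, 325 and 392 to 609.6, 611 and 598 CPM in K562, with effects of 0.69 and 0.76 that differed by -0.07 (interval -0.73 to 0.58). miR-19b-1-5p, from the miR-17-92 cluster, had a mean effect of 0.97 ± 0.23, with 1.43 in hESCs and 0.52 ± 0.31 in K562 (adjusted p = 0.477). The call of its mean effect was lost in 6 of 25 alternatives, among them without hESC WT library 2, K562 control library 1 or 2, or KO library 2. miR-6511a-5p, which 4 identical hairpins can give, was near the detection limit, with 1 read in all K562 control libraries and 17 in KO, a ratio of 20.9 with a counting interval of 3.27 to 873. Without K562 control libraries 1 and 2, which leaves 1 control library assumed to vary like the other groups, only 4 mean effects were called, and those of miR-486-3p, miR-34c-5p, miR-135a-5p, miR-146a-5p, miR-181d-5p, miR-3182 and let-7c-5p were not among them. In that fit the mean effect of miR-34c-5p was -1.07, that of miR-146a-5p -1.17 and that of miR-135a-5p 1.06.

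Of 8 tested members of the X-linked cluster of miR-424, miR-503, miR-450 and miR-542, 2 were called lower in hESCs (miR-503-5p, -1.62, and miR-542-3p, -1.27), 1 in K562 (miR-450b-5p) and 3 in the mean, against 3.81% of all called lower in the mean. All 8 had a negative hESC effect and 7 a negative K562 effect, with medians of -0.91 and -0.44. Of the 9 members of the let-7 family tested, none was called in either line by edgeR (2 in hESCs and 4 in K562 at an unadjusted p under 0.05), and 2 were called lower in the mean, let-7a-5p (-1.16) and let-7c-5p. All 9 had a negative K562 effect, with a median of -0.58 beside -0.14 for all miRNAs, and 8 of 9 a negative hESC effect. The 13 tested miRNAs of miR-17-92 and its paralogs had a median of 0.51 in hESCs and -0.07 in K562, with 1 call among these 13, miR-19a-3p in the mean (1.02, against 1.12% of all called higher in the mean). miR-19b-1-5p, of the miR-17-92 cluster but not on that list, was called in hESCs (1.43 ± 0.34, adjusted p = 0.0487) as well as in the mean. Of 15 blood lineage miRNAs, 2 were called lower in hESCs (miR-146a-5p and miR-486-3p), against 1.12% of all, 1 lower in K562 (miR-126-3p), against 3.25%, 1 positive in the difference (miR-126-3p), against 2.35%, and 2 lower in the mean, against 3.81%. The 3 tested members of the miR-371 cluster, another stem cell cluster, were lower without overlap in hESCs, against 11.4% of all, with effects from -5.75 to -3.88. WT library 1 was far above the other pair (miR-372-3p at 10472, 719 and 712 CPM in WT and 317, 252 and 238 CPM in mutants), and none was called by edgeR in the fit of all 12 libraries (adjusted p at least 0.0820, with all 3 at an unadjusted p under 0.05). Without WT library 1 the effect of miR-371b-3p was -1.97 and called (adjusted p = 0.0187), and without hESC libraries 1 and KO library 3 the effects were -1.76 for miR-371b-3p and -1.53 for miR-372-3p.

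The 5 miRNAs that the study followed in blood formation (miR-223-3p, miR-199a-3p, miR-125b-5p, miR-125a-5p and miR-142-5p) were called in neither line and in no difference or mean by edgeR, with 3 at an unadjusted p under 0.05 in hESCs, 1 in K562, 2 in the difference and 2 in the mean. The study reported their decrease by qRT-PCR, in hESCs and in blood progenitors derived from them. It also reported faster decay once transcription was blocked, in mutant hESCs and, for some of the 5, in K562 KO cells. From miRNA sequencing of both lines, it reported that USB1 loss mostly affected guide (main) strands and not passenger (opposite) strands. The qRT-PCR and decay assays and the study's threshold differ from those used here, but its sequencing is the same type of assay. Progenitors are not among these libraries. miR-199a-3p was at 67.9, 38.5 and 45.2 CPM in WT and 26.5, 20.9 and 24.4 CPM in mutant hESCs, lower without overlap (-1.08 ± 0.32, adjusted p = 0.0951), and its K562 groups overlapped (-0.03). miR-125b-5p gave -1.09 ± 0.38 in hESCs and 0.23 ± 0.41 in K562. miR-223-3p, a myeloid miRNA, was at 1378, 910.1 and 1055 CPM in K562 control and 771, 728 and 487 CPM in KO, lower without overlap (-0.75 ± 0.24, adjusted p = 0.111), and was under 1 CPM in all hESC libraries. miR-125a-5p had effects of -0.32 ± 0.24 and -0.27 ± 0.24, with an interval of the difference of -0.76 to 0.67. miR-142-5p was measured at a few CPM in hESCs and at 456 to 631 CPM in K562, with effects of -1.33 ± 0.48 and -0.25 ± 0.40. Of 6 opposite strands of these miRNAs, none was called by edgeR in either line, the difference or the mean. miR-125b-2-3p (-1.72 ± 0.55) and miR-125b-1-3p (-0.51 ± 0.46) were lower without overlap in hESCs, against 11.4% of all. miR-125a-3p was lower without overlap in K562 (-0.71 ± 0.24), against 19.2% of all. The remaining opposite strands overlapped between groups in both lines.

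The effects of relatives by seed or by hairpin did not always have the same sign, though most of the K562 effects concerned were not called. miR-135a-5p and miR-135b-5p, whose printed sequences share the seed, both had positive hESC effects (1.08 and 1.72). miR-135a-5p rose in K562 (1.57, adjusted p = 0.0438), while miR-135b-5p had -0.44 ± 0.35 there and was not called (adjusted p = 0.61). The other arm of the miR-135b hairpin followed the 5p arm, with 0.69 and -0.64. In the miR-181 family, known for roles in lymphocytes, miR-181a-5p, miR-181b-5p and miR-181d-5p all had negative hESC effects (-0.65, -1.0 and -0.85). Their K562 effects were 0.51 ± 0.28, 0.59 ± 0.28 and -0.84 ± 0.26, none of them called. The difference was called for miR-181b-5p (-1.59 ± 0.40, adjusted p = 0.0408), a call lost in 10 of 25 alternatives, including without hESC WT library 1 or 3, mutant library 2 or 3, K562 control library 1 or 2, or KO library 1 or 2. The call of the mean effect of miR-181d-5p was lost without hESC WT library 2 or KO library 2. miR-181d lies on chromosome 19 beside miR-181c, whose 3p arm also fell in K562, and miR-181b comes from hairpins on chromosomes 1 and 9. The arms of miR-30a both fell in hESCs (-1.18 and -1.41), but in K562 gave 0.29 ± 0.24 and -1.04 ± 0.31, neither of them called. miR-30c-5p and miR-30e-5p, which share the seed of miR-30a-5p, gave -0.10 and 0.54 in hESCs. No test was made between relatives. Reads of sequences this close may be split between them by the alignment, so that the values of single miR-135, miR-181 and let-7 members are less certain. Over 188 pairs of a 5p and a 3p arm, both tested, Pearson's r between the arms was 0.46 for the hESC effect, 0.46 for the K562 effect and 0.55 for the difference. Some arms, such as miR-125b-5p, entered more than 1 pair, and this is a description across pairs that share libraries.

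**Figure D4:**
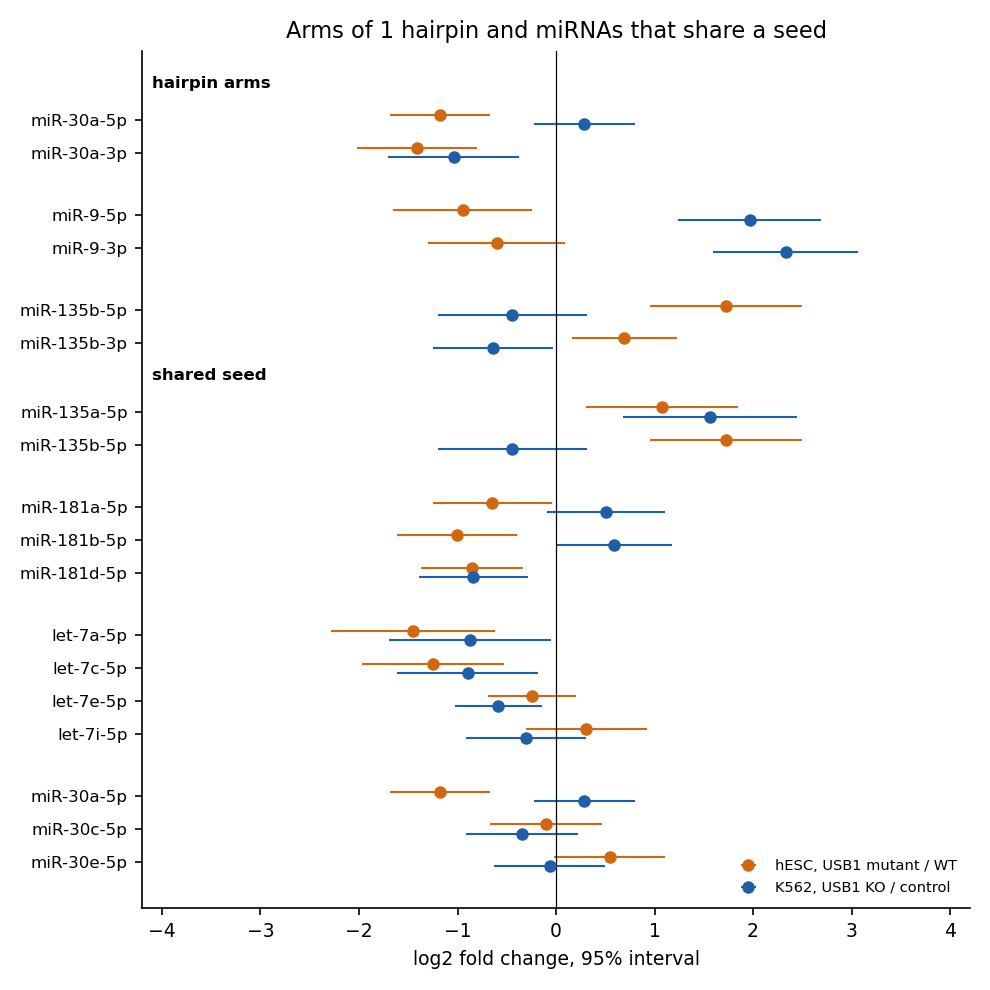
Log2 fold change after USB1 loss with its 95% interval in hESCs (orange) and K562 (blue) for the 2 arms of 3 hairpins (top) and for miRNAs that share a seed (bottom). The arms of miR-9 lie on the same side of 0 within each line, whereas in K562 miR-30a-5p and miR-30a-3p, miR-135b-5p and miR-135a-5p, and miR-181b-5p and miR-181d-5p lie on opposite sides of 0.

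The K562 side could be set beside 6 libraries not used above, K562 control and USB1 KO cells that both carried an shRNA against the deadenylase PARN. Only 1 member of the miR-302 cluster was listed for each of these groups, with at most 2 counts per library. In a fit of all 27 libraries over 857 miRNAs, KO against control with shPARN called 89 (10.4%), 55 higher (6.42%) and 34 lower (3.97%), and over all miRNAs 55.9% had the same sign as the K562 effect without shPARN. Of the 28 difference calls, 26 had the same sign there and 9 were called in that direction, none in the opposite one. For miR-30a-5p 1 KO library stood far above the other pair, whose levels were close to control or overlapped with it (39.7, 30.2 and 31.5 CPM in control, 264, 41.9 and 31.1 CPM in KO), and the groups of miR-584-5p also overlapped (20.3, 23.8 and 42.1 CPM in control, 39.6, 52 and 131 CPM in KO). Beside miR-135b-5p, miR-181b-5p, miR-30a-5p and miR-625-3p these were the rises in K562: miR-9-5p 1.52 ± 0.26 (adjusted p = 0.0011), miR-9-3p 1.49 ± 0.32, miR-584-5p 1.37 ± 0.35 (adjusted p = 0.0111), miR-1257 1.60 ± 0.32 and miR-3681-5p 1.96 ± 0.37. For miR-9-5p the levels were 219.7, 231 and 264 CPM in control and 700.4, 619 and 732 CPM in KO. Of the shared miRNAs, 16 were in this fit, 10 with the same sign, and 4 were called: miR-450b-5p (-1.55 ± 0.21), miR-542-3p (-1.15), miR-181d-5p (-1.09) and miR-181c-3p (-1.53). miR-135a-5p (-0.58), miR-3182 (-1.21), miR-30a-3p (0.51), miR-486-3p (0.38), miR-152-3p (0.15) and miR-200a-5p (0.72) had the opposite sign, without a call. Among the relatives above, miR-135a-5p and miR-135b-5p (-1.56) thus had the same sign with shPARN, as had miR-30a-3p and miR-30a-5p (1.73). miR-181d-5p and miR-181b-5p (0.90) had opposite signs there too.

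The 14q32 cluster was not lower to the same extent in these libraries. Of its 20 members 18 were in the fit, 15 of them with a negative value, but 0 were called by edgeR (3 at an unadjusted p under 0.05), with a median of -0.48 against -2.76 without shPARN. miR-381-3p was at 185, 207 and 135 CPM in control and 137, 96.8 and 40.1 CPM in KO with shPARN, an effect of -0.94 ± 0.36 (adjusted p = 0.102). miR-493-3p had 0.16 ± 0.39 and miR-409-3p -0.75 ± 0.44. The shRNA and how the cells carrying it were derived cannot be told apart in this comparison, and the difference between the K562 effects with and without shPARN was not tested.

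**Figure D5:**
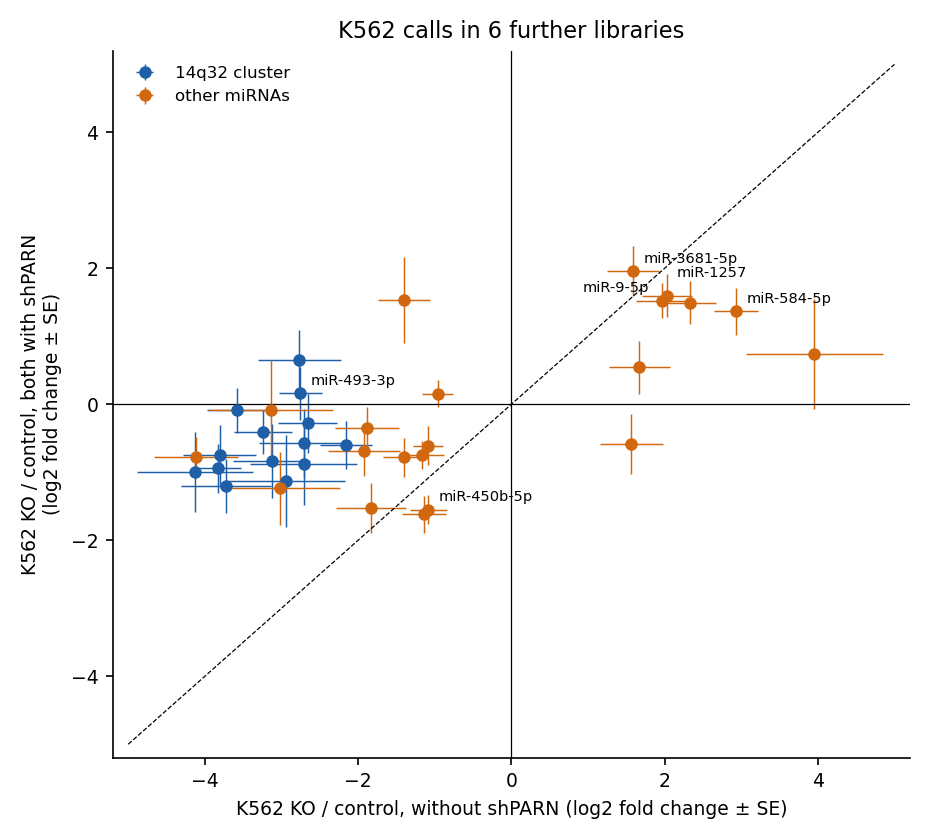
Log2 fold change ± SE of K562 KO over control without shPARN (x axis) and with shPARN in both (y axis) for 35 of the 37 miRNAs called in K562, with 14q32 members in blue; the dashed line marks equal effects. miR-9-5p, miR-1257, miR-3681-5p and miR-584-5p lie above 0 on both axes and miR-450b-5p below 0 on both, while the 14q32 members lie far above the dashed line, closer to 0 with shPARN.

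The hESC side could be set beside mutant hESCs with an inducible WT USB1 transgene (iUSB1-WT), without against with doxycycline (Dox). This comparison called 0 of 857 miRNAs (0%) in edgeR, with 27 at an unadjusted p under 0.05. Over all miRNAs 45.6% had the same sign as the mutant over WT effect, and so had 13 of the 28 difference calls, 9 of 16 shared miRNAs and 7 of 14 hESC calls in the fit. The values were 0.03 for miR-381-3p, 0.05 for miR-30a-5p, 0.08 for miR-135b-5p and -0.15 for miR-450b-5p. Small RNA sequencing does not measure USB1 mRNA, so how far USB1 was restored in these libraries could not be checked. The study reports that WT USB1 induced by Dox restored the miRNAs it followed, as measured by qRT-PCR.

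Of the 892 tested miRNAs, 792 matched 1 mature sequence by name. The last base was U in 10 of 20 miRNAs with a positive difference and in 29.9% of all matched miRNAs, and 5 of 11 shared falls with a sequence ended in U (45.5%). Median length was 22 nt in each of these sets. Many of the 20 come from 1 cluster, and these shares are descriptions of small sets.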

How the data were processed

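Small RNA libraries (Lexogen kit, NovaSeq) were made by the authors from total RNA of H1 hESCs and K562 cells. Per the submitters' processing notes and the methods, adapters were trimmed with cutadapt 2.5, reads aligned to miRBase entries with Bowtie2 2.2.9 without a mismatch in the seed, and counted with SAMtools 1.3.1. What the authors deposited are unnormalized read counts, 1 table per group with a line for each mature miRNA; a genome build for the small RNA reads is not given in the sources used here. A table holds only miRNAs that its first library detected, so a miRNA absent from 1 table has no value there and was not tested. Adaptor rows (at most 0.206% of counts) were removed, and 0 value columns were left unused. The tested miRNAs held 63.5 to 71.9% of the hESC counts and 99.8 to 99.9% of the K562 counts of a library.

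The K562 control columns were matched to their group through the descriptions, and their library numbers are those of the column names. The 12 libraries in 4 groups were fitted together with edgeR 4.0.16 in R 4.3.3: filterByExpr (minimum count 10, minimum total 15), TMM scaling, robust glmQLFit and glmQLFTest, with contrasts for each line, their difference and their mean, and Benjamini-Hochberg adjustment over 892 miRNAs at a threshold of 0.05. The study names DESeq2, kept as an alternative. SE is the fold change over the square root of F, and intervals are 95%. Levels are CPM after TMM scaling. The scripts were tested on simulated data. Alternatives were other scalings, DESeq2 1.42.0, limma 3.58.1 voom, filters, each line alone, all 27 libraries, a replicate block, a non-robust dispersion and leaving out libraries. Named miRNAs were the 5 the study followed and their opposite strands, those called in both lines or, in the same direction, the 10 closest to it, the 8 largest differences in each direction at a mean log2 CPM of at least 3 in 1 line, up to 8 shared changes in each direction, called members of the lists described, and arms and seed relatives. The remaining called differences and shared miRNAs, miR-372-3p, and the comparisons with shPARN and doxycycline libraries were added after their values were seen. Members and lists were chosen with earlier results of these data known.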

Additional observations from a re-analysis of the deposited data

Results flagged for a closer look

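The effect of USB1 loss differed between hESCs and K562 by a test of the difference itself for 28 miRNAs. The differences, hESC effect minus K562 effect on the log2 scale, were 5.15 for miR-381-3p, 4.93 for miR-409-3p, 4.23 for miR-493-3p, 4.11 for miR-495-3p, 3.95 for miR-654-3p, 3.81 for miR-134-5p, 3.55 for miR-494-3p, 3.45 for miR-379-5p, 2.93 for miR-127-3p and 2.59 for miR-370-3p, all of the 14q32 cluster. Further positive differences were 3.53 for miR-34b-3p, 2.17 for miR-135b-5p and 2.14 for miR-335-3p. Negative ones were -3.60 for miR-584-5p, -2.93 for miR-9-3p, -2.91 for miR-9-5p, -2.57 for miR-3681-5p, -2.52 for miR-1257, -1.59 for miR-181b-5p and -1.47 for miR-30a-5p. The miR-302 cluster, of which 2 members (miR-302a-3p and miR-302b-3p) were tested and miR-302b-3p was called lower in K562, marks pluripotent cells. In K562 it stood at 1469 CPM in K562 control library 1 and 1552 CPM in control library 2, against under 1 CPM in control library 3 and the KO libraries. In KO 2 of its members were listed, against 10 in control. Groups of 3 libraries are too small for a test of single outlying samples, so none was made.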

How the results depend on the processing

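The number of called differences was 28, and 46 with DESeq2, 60 with limma voom and, leaving out 1 library, between 13 (without K562 control library 1) and 32. For hESCs the 16 calls became 55 with DESeq2, 81 with limma voom, 31 with a minimum of 10 CPM in 3 libraries, 38 with all 27 libraries fitted, 0 with each line fitted alone, and 0 to 20 leaving out 1 library, the 0 being reached without WT library 3, mutant library 1 or 2, or KO library 1 or 2. Without WT library 1 or K562 control library 1 it was 3. The 37 K562 calls became 69 with limma voom and 20 (without KO library 2) to 45 leaving out 1 library. The 44 calls of the mean became 75 with DESeq2, 98 with limma voom, 75 with all 27 libraries and 19 (without KO library 2) to 54 leaving out 1 library. miRNAs called in both lines in the same direction numbered 1 with library totals, 4 with DESeq2, 8 with limma voom, 2 with the 10 CPM minimum, 2 with all 27 libraries and 0 to 1 leaving out 1 library. The split of the difference was 21 positive to 7 negative, and 12 to 9 with library totals, and that of K562 8 higher to 29 lower, and 12 to 20 with library totals, 11 to 22 with RLE scaling and 11 to 20 with TMM within each line. The split of hESCs was 6 to 10, and 4 to 12 with library totals, and that of the mean 10 to 34, and 16 to 29 with TMM within each line.

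Alternatives chosen after seeing the data left out K562 control libraries 1 and 2, which gave 13 differences, 0 hESC, 14 K562 and 4 mean calls, or hESC WT and mutant libraries 1 with KO library 3, which gave 34 hESC calls, 62 K562 calls and 6 in both lines in the same direction. With the 33 miRNAs exposed to stem cell reads set aside, each of these counts stayed within 1.5 times. The cause of these shifts was not tested.

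The labels do not state that replicate numbers pair the samples, and those of K562 control are only column numbers. Deviations of libraries with the same number correlated at 0.20, -0.04 and 0.30 in hESCs and -0.02, -0.23 and -0.23 in K562 over 426 miRNAs. Tested miRNAs held 63.5% of counts in hESC WT library 1 and 63.8% in mutant library 1, against 70.5 to 71.9% in the other hESC libraries. Whether hESC libraries of the same number were handled together is not stated and was not tested. With the replicate number as a block, 15 differences, 0 hESC, 29 K562, 24 mean and 0 shared-direction calls were made.

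Differences near 0 changed sign, without a call. That of miR-125a-5p went from -0.05 to 0.15 without K562 control libraries 1 and 2, and ranged from -0.25 to 0.10 leaving out 1 library. That of miR-125b-1-3p went from -0.02 to 0.40 without hESC libraries 1 and KO library 3, and ranged from -1.03 to 0.38 leaving out 1 library. That of miR-223-5p, under 1 CPM in hESCs, went from 0.03 to -0.13 with RLE scaling, -0.15 with library totals, -0.13 with TMM within each line, -0.12 with DESeq2, -1.37 with limma voom, -0.077 without a filter, -0.029 with the 10 CPM minimum, -0.0052 with the replicate block, -0.17 with exposed miRNAs set aside, -1.35 without hESC libraries 1 and KO library 3, and ranged from -0.90 to 0.35 leaving out 1 library. Effects of miRNAs under 1 CPM in a line rest on few counts there.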
